A study of Saccharomyces cerevisiae with 8 samples.

Results

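The 10 mating-type specific genes described here were taken from the gene table by name, 7 a-specific genes (MFA1, MFA2, STE2, STE6, BAR1, AGA2 and ASG7) and 3 α-specific genes (STE3, SAG1 and MF(ALPHA)1), of 7127 genes in all. Both strains were Saccharomyces cerevisiae of mating type MATa with the markers ade2, his3 and ura3 and with PPN1, a polyphosphatase gene, replaced by CgTRP1. CRN/PPN2 was CRN carrying a centromeric URA3 plasmid, pMB1_PPN2 Sc, with PPN2, another polyphosphatase gene, under the TDH3 promoter. Poly(A) RNA was sequenced from CRN/PPN2 with 20 mM KOH in YPD (harvested at 25 h), CRN/PPN2 in YPD (16 h), CRN with 20 mM KOH in YPD (40 h) and CRN in YPD (16 h), with 2 libraries per group. The CRN/PPN2 cells with KOH were lysed directly in Trizol LS, while the other 3 groups were frozen and pressed, so that for this group the effects of medium, strain, harvest time and lysis cannot be told apart. In CRN, the effects of KOH and of harvest time (40 h with KOH, 16 h in YPD) cannot be told apart either. The study states that replicates 1 and 2 were separate batches of preparation and sequencing but not that they were separate cultures, so p-values measure the spread between these libraries, which may be technical.

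In budding yeast the mating-type locus sets which pheromone a haploid cell makes and which it senses. The a cells make a-factor and carry the receptor of α-factor, and α cells make α-factor and carry the receptor of a-factor. The general factor Mcm1 drives a-specific genes in a cells. In α cells the repressor α2 binds beside Mcm1 and, with Tup1 and Cyc8, shuts the a-specific genes off, while the activator α1 works with Mcm1 to turn α-specific genes on. A MATa strain has neither α1 nor α2 from its mating-type locus, and its α-specific genes are described as inactive.

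The sequences that set the a-specific genes apart are the α2-Mcm1 operators, which were looked for in the 500 bases before the start codon of 6002 genes of the RefSeq annotation (genome build R64), on both strands. Each operator is printed with the α2 triplets (TGT or its complement ACA) and the Mcm1 core (CC and GG) in capitals, 5′ to 3′ on the strand on which it matched.
MFA1, chrIV:1384942-1384972, + strand: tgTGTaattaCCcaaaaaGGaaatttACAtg
MFA2, chrXIV:352163-352193, + strand: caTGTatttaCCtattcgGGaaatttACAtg
STE2, chrVI:82351-82381, - strand: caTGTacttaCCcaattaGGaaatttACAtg
STE6, chrXI:46477-46507, - strand: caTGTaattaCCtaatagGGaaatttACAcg
BAR1, chrIX:322078-322108, + strand: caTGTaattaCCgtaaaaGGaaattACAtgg
AGA2, chrVII:437101-437131, - strand: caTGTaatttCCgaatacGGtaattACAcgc
ASG7, chrX:101905-101935, - strand: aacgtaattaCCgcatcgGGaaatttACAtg

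The windows lie between 298 and 126 bases before the start codon (bases -298 to -126). An α2 triplet 5 or 6 bases before the core (TGTNNNNNCCNNNNNNGG or TGTNNNNNNCCNNNNNNGG) was found upstream of 7 of 7 a-specific genes and 0 of 3 α-specific genes, against 4.97% of all genes. The 5-base spacing alone stood upstream of 6 a-specific genes and 2.75% of all genes, and the 6-base spacing upstream of 5 and 2.5%. The form with a triplet on each side (TGTNNNNNCCNNNNNNGGNNNNNNACA) stood upstream of MFA1, MFA2, STE2 and STE6 and of 7 of the 6002 genes in all (0.12%). In BAR1 and AGA2 the second triplet was 1 base closer to the core, and in ASG7 the first was missing from the window. The Mcm1 core alone (CCNNNNNNGG, which also lies within the operators) was found upstream of 49.17% of genes, and of 7 a-specific and 2 α-specific genes.

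Other letters were shared less evenly. The pheromone response element TGAAACA, to which the factor Ste12 binds, stood upstream of 7 of 7 a-specific genes and of SAG1, against 12.01% of all genes. The Q element CAATGACAG, described as part of the α1-Mcm1 site of STE3, was present upstream of 0.38% of genes and, among the members, of STE3, where it is printed in capitals.
STE3, chrXI:114952-114976, + strand: tagtgtcaCAATGACAGagaaaatt
All of these are matches of letters, with no measurement of binding. The letters looked for were those of elements already described for such genes, so the matches are a description and not a test.

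**Figure D1:**
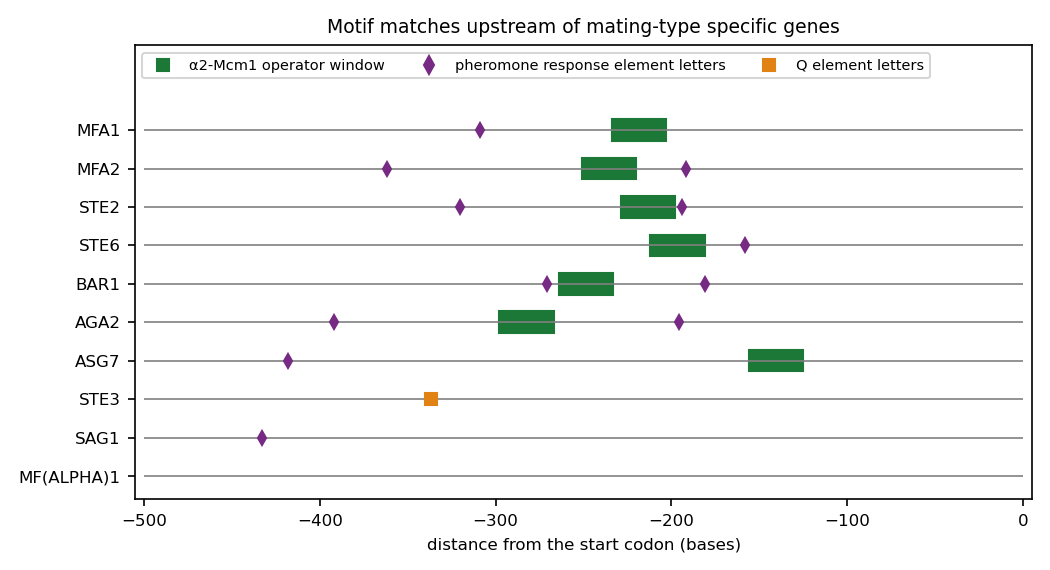
Positions of motif matches in the 500 bases before the start codon (x axis, bases from the start codon) of the 10 genes (y axis). Green boxes are the 31-base operator windows, purple diamonds the letters TGAAACA and orange squares the letters CAATGACAG, both drawn at their centre. All 7 a-specific genes have a green box and the 3 α-specific genes have none.

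The 8 libraries held 1559324 and 796548 counts in CRN/PPN2 with KOH and between 3844316 and 5004823 counts in the other 6. A single count was worth 0.641 and 1.26 CPM (counts scaled to a common library size) in CRN/PPN2 with KOH and 0.2 to 0.26 CPM in the rest. The labels were first checked on the engineered genes. PPN1 had 0 or 1 count in every library, and PPN2 was 28.4-fold higher in CRN/PPN2 than in CRN with KOH and 31.6-fold higher in YPD. The levels below are CPM scaled by TMM, and genes were tested with edgeR's quasi-likelihood test over the 5430 genes that had at least 10 CPM in at least 2 libraries and called at a Benjamini-Hochberg adjusted p under 0.05. ASG7 reached 10 CPM in 1 library and failed this filter, so that 9 of the 10 members were tested. STE3 and MF(ALPHA)1 passed it only through the 2 CRN/PPN2 libraries with KOH, as did 3.61% of the tested genes. These genes had to be high in that group to be tested, and their calls against it are given as values and not as support.

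Taken as sums, the 7 a-specific genes were far more abundant than the 3 α-specific genes in all 8 libraries. By gene this did not hold for ASG7, which at 6.26 ± 1.76 CPM per kb (SD, n = 2) was the lowest of the 10 in CRN/PPN2 with KOH. Per kilobase of gene, the 7 a-specific genes summed to 3669 and 1670 CPM per kb in CRN/PPN2 with KOH, 3151 and 3311 in CRN/PPN2 in YPD, 2504 and 2781 in KOH-grown CRN, and 3050 and 3463 in CRN in YPD. The 3 α-specific genes summed to 60.6 and 73.7 CPM per kb in CRN/PPN2 with KOH, 13.8 and 16.7 in CRN/PPN2 in YPD, 13.5 and 17.3 in KOH-grown CRN, and 14.1 and 12.3 in CRN in YPD. The ratio of the sums was 60.6 and 22.65 in CRN/PPN2 with KOH and lay between 160.6 and 282.8 in the other 6 libraries. Per kb, where the short MFA2 weighs most, the a-specific sum overlapped between the groups, whereas the α-specific sum of CRN/PPN2 with KOH lay above the other libraries. Not divided by length, the a-specific genes summed to 967 and 709 CPM in CRN/PPN2 with KOH, below the 1228 to 1588 CPM of the other 6 libraries.

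As a share of all counts on the 10 genes, the α-specific genes took 6.47% (95% Clopper-Pearson interval 5.33 to 7.77) and 10.3% (8.11 to 12.9) in CRN/PPN2 with KOH. The share was 1.59% (1.30 to 1.91) and 1.90% (1.60 to 2.23) in CRN/PPN2 in YPD. It was 1.59% (1.26 to 1.97) and 2.32% (1.94 to 2.74) in CRN with KOH, and 1.68% (1.39 to 2.01) and 1.38% (1.13 to 1.68) in CRN in YPD. These intervals cover counting error only, and those of CRN/PPN2 with KOH do not meet the others. Per kb the share averaged 2.93% ± 1.84 in CRN/PPN2 with KOH, 0.469% ± 0.0458 in CRN/PPN2 in YPD, 0.576% ± 0.0598 in CRN with KOH and 0.407% ± 0.0770 in CRN in YPD (SD, n = 2 each).

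**Figure D2:**
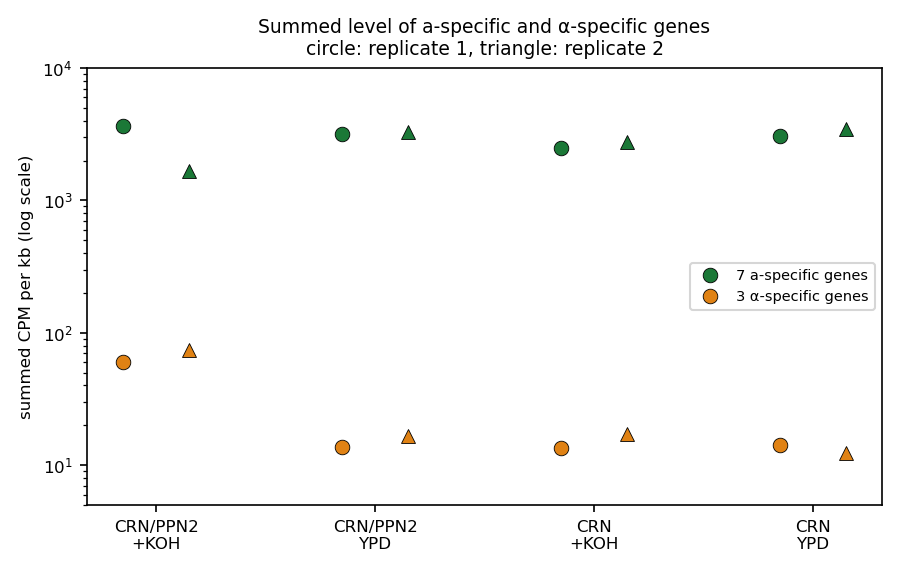
Summed CPM per kb (log scale) of the 7 a-specific genes (green) and the 3 α-specific genes (orange) in each library, by group. Circles are replicates 1 and triangles replicates 2. The α-specific sums of CRN/PPN2 with KOH, 60.6 and 73.7, lie above the 12.3 to 17.3 of the other 6 libraries, while the a-specific sums per kb run from 1670 to 3669 and overlap between groups (without division by length they are 967 and 709 CPM in CRN/PPN2 with KOH and 1228 to 1588 CPM in the other 6).

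The order of the levels per kb was much the same in the 4 groups. MFA2 was highest, with 1840 ± 1310 CPM per kb in CRN/PPN2 with KOH, 1840 ± 170 in CRN/PPN2 in YPD, 1550 ± 61.0 in CRN with KOH and 1820 ± 202 in CRN in YPD (SD, n = 2 each). MFA1 and STE2 followed. MFA1 stood above STE2 in CRN/PPN2 with KOH (387 ± 111 and 254 ± 11.5 CPM per kb) and below it in CRN in YPD (501 ± 92.2 and 578 ± 7.29), and these neighbours did not differ beyond their spread except in CRN/PPN2 with KOH. AGA2, BAR1 and STE6 came next in this order in every group, from 157 ± 7.46 to 80.5 ± 6.82 CPM per kb in CRN in YPD. SAG1, STE3 and ASG7 were at 20.7 ± 2.35 CPM per kb or below in all groups, and SAG1 and ASG7 did not differ beyond their spread in CRN with KOH (10.2 ± 2.95 and 7.39 ± 3.31) or in CRN in YPD (11.1 ± 1.61 and 9.58 ± 0.303). MF(ALPHA)1 was lowest in CRN/PPN2 in YPD (1.80 ± 0.232), CRN with KOH (2.43 ± 0.330) and CRN in YPD (0.221 ± 0.313), but at 34.8 ± 4.45 CPM per kb in CRN/PPN2 with KOH it stood level with STE6 (34.8 ± 0.947). The order depended on the division by gene length. Not divided, STE2 (749 ± 9.45 CPM) and STE6 (312 ± 26.4) stood above MFA2 (213 ± 23.6) in CRN in YPD.

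The genes for making and sensing pheromone were taken in the order of their roles, starting with the a-factor genes. MFA1 encodes an a-factor precursor (YDR461W, chrIV:1385176-1385286). It had 51.7 and 34.3 CPM in CRN/PPN2 with KOH, 70.0 and 55.8 in CRN/PPN2 in YPD, 26.5 and 50.8 in KOH-grown CRN, and 48.4 and 62.8 in CRN in YPD. The replicates differed up to 1.91-fold, and MFA1 was not called in any comparison. With KOH its log2 fold change was -0.46 ± 0.27 in CRN/PPN2 (adjusted p = 0.153) and -0.51 ± 0.22 in CRN (adjusted p = 0.126). It was called in CRN/PPN2 without CRN/PPN2 YPD replicate 2 (-0.81, adjusted p = 0.0350), and in CRN without CRN with KOH replicate 2 (-1.12, adjusted p = 0.0390) or without CRN/PPN2 with KOH replicate 2 (-0.53, adjusted p = 0.0485). It was also called in the 4 libraries of either comparison alone (-0.57, adjusted p = 0.0292, in CRN/PPN2 and -0.54, adjusted p = 0.00242, in CRN) and, in CRN/PPN2, with no filter (-0.54, adjusted p = 0.0416).
MFA2, the other a-factor gene (YNL145W, chrXIV:352414-352530), had 324 and 108 CPM in CRN/PPN2 with KOH, 201 and 229 in CRN/PPN2 in YPD, 176 and 186 in KOH-grown CRN, and 196 and 230 in CRN in YPD. The replicates of CRN/PPN2 with KOH differed 3.01-fold, 1 above and 1 below all other libraries, and the KOH effect in CRN/PPN2 was 0.05 ± 0.26 on the log2 scale (SE, adjusted p = 0.876, edgeR). Without replicate 1 of that group the log2 fold change was -1.05 (adjusted p = 5.27e-05) and without replicate 2 it was 0.69 (adjusted p = 0.000123), so no direction is given for MFA2. Both transcripts are short, 111 and 117 bases of coding sequence.

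STE6 encodes the transporter that exports a-factor (YKL209C, chrXI:42423-46295). It had 138 and 132 CPM in CRN/PPN2 with KOH, against 268 and 283 in CRN/PPN2 in YPD, 295 and 263 in KOH-grown CRN, and 330 and 293 in CRN in YPD. Both libraries of CRN/PPN2 with KOH lay below all others. With KOH, STE6 fell in CRN/PPN2 by 1.03 ± 0.14 on the log2 scale (2.04-fold lower, adjusted p = 5.76e-06), and in CRN it changed by -0.16 ± 0.12 (adjusted p = 0.388). The difference between these effects was -0.87 ± 0.18 (adjusted p = 0.00109).

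STE2 encodes the receptor for α-factor (YFL026W, chrVI:82580-83875) and had the most counts of the members. Its level was 340 and 319 CPM in CRN/PPN2 with KOH, 667 and 654 in CRN/PPN2 in YPD, 583 and 493 in KOH-grown CRN, and 742 and 755 in CRN in YPD. The 4 groups did not overlap. STE2 fell with KOH by 1.00 ± 0.13 on the log2 scale in CRN/PPN2 (adjusted p = 6.61e-06) and by 0.48 ± 0.13 in CRN (adjusted p = 0.0146), and the difference of the effects was -0.52 ± 0.18 (adjusted p = 0.0309). The call in CRN was lost when any 1 of the 4 CRN libraries was left out (log2 fold change -0.59 to -0.38, adjusted p 0.0634 to 0.314) and without the replicate block (adjusted p = 0.0878). The call of the difference was lost without either CRN/PPN2 library in YPD (adjusted p = 0.0775 and 0.120), without CRN with KOH replicate 1 (0.183) and without either CRN library in YPD (0.184 and 0.0731), and also with thinned libraries (0.0764) and with no replicate block (0.0957).

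BAR1 encodes the secreted protease that cleaves α-factor (YIL015W, chrIX:322342-324105). It had 89.0 and 82.7 CPM in CRN/PPN2 with KOH, against 145 and 174 in CRN/PPN2 in YPD, 185 and 183 in KOH-grown CRN, and 187 and 201 in CRN in YPD. BAR1 was lower with KOH by 0.87 ± 0.15 on the log2 scale in CRN/PPN2 (adjusted p = 7.20e-05), while the value in CRN was -0.07 ± 0.12 (adjusted p = 0.716). These effects differed by -0.80 ± 0.19 (adjusted p = 0.00286), a call lost once every library was thinned to the smallest (-0.59, adjusted p = 0.0846).

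AGA2 encodes the binding subunit of a-agglutinin, by which a cells stick to α cells (YGL032C, chrVII:436570-436833). It had 22.1 and 28.4 CPM in CRN/PPN2 with KOH, 32.4 and 42.7 in CRN/PPN2 in YPD, 32.4 and 44.7 in KOH-grown CRN, and 42.9 and 40.1 in CRN in YPD. The KOH effect in CRN/PPN2 was -0.58 ± 0.23 (adjusted p = 0.0398) and that of CRN/PPN2 vs. CRN with KOH was -0.62 ± 0.23 (adjusted p = 0.0293). Both calls were lost without replicate 1 (adjusted p = 0.240 and 0.194) or replicate 2 (0.0771 and 0.0684) of CRN/PPN2 with KOH. The KOH call was also lost without replicate 1 (0.0569) or 2 (0.154) of CRN/PPN2 in YPD, and the strain call without CRN with KOH replicate 2 (0.171). DESeq2 (0.0915 and 0.0647) and thinning to the smallest library (0.264 and 0.0697) called neither, and the KOH call was lost without the replicate block (0.0621).
ASG7, which acts on pheromone signalling after cells meet (YJL170C, chrX:101150-101779), had 5 and 4 counts in CRN/PPN2 with KOH, 49 and 46 in CRN/PPN2 in YPD, 12 and 28 in KOH-grown CRN, and 26 and 28 in CRN in YPD. At 3.15 and 4.73 CPM in CRN/PPN2 with KOH against 9.995 and 9.01 in CRN/PPN2 in YPD, it differed by -1.40 ± 0.50 (adjusted p = 0.0189) in a fit with no filter on low counts.

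The α-specific genes were then taken in turn. SAG1 encodes α-agglutinin, the partner of a-agglutinin (YJR004C, chrX:442909-444861), and it is the only member of the 3 that passed the filter in every library. It had 37.2 and 43.7 CPM in CRN/PPN2 with KOH, against 15.9 and 22.5 in CRN/PPN2 in YPD, 15.9 and 24.1 in KOH-grown CRN, and 23.8 and 19.4 in CRN in YPD. The CRN/PPN2 libraries with KOH lay above all others, and the other 3 groups overlapped. SAG1 rose with KOH in CRN/PPN2 by 1.08 ± 0.24 on the log2 scale (2.11-fold, adjusted p = 0.00113), with -0.11 ± 0.21 in CRN (adjusted p = 0.767), a difference of 1.19 ± 0.32 (adjusted p = 0.00697). The call of the difference was lost without CRN/PPN2 YPD replicate 1 (adjusted p = 0.0523), CRN with KOH replicate 1 (0.0640) or CRN YPD replicate 1 (0.0579).

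MF(ALPHA)1 encodes the main α-factor precursor (YPL187W, chrXVI:193648-194145). It had 25 and 16 counts in CRN/PPN2 with KOH, 4 and 5 in CRN/PPN2 in YPD, 5 and 5 in KOH-grown CRN, and 0 and 1 in CRN in YPD. Scaled for depth, that is 15.8 and 18.9 CPM in CRN/PPN2 with KOH, 0.816 and 0.980 in CRN/PPN2 in YPD, 1.33 and 1.09 in KOH-grown CRN, and 0 and 0.220 in CRN in YPD. From the pooled counts, CRN/PPN2 with KOH was 18.8-fold (95% counting interval 8.98 to 43.9) above CRN/PPN2 in YPD and 14.1-fold (6.93 to 31.5) above CRN with KOH. The log2 fold change with KOH in CRN/PPN2 was 4.22 ± 0.43 (adjusted p = 2.96e-07).
In CRN the pooled counts of MF(ALPHA)1, 10 with KOH and 1 in YPD, gave a ratio of 10.7 (counting interval 1.53 to 465). The test called this rise (log2 fold change 3.08 ± 0.96, adjusted p = 0.0385). Of 14 alternatives, 4 kept the call, 9 lost it and 1, thinning to the smallest library, gave -0.001. The call was lost without CRN/PPN2 YPD replicate 2, CRN with KOH replicate 1 or 2, or CRN YPD replicate 1 or 2, and without the replicate block, among others. With either of the CRN/PPN2 libraries with KOH left out, MF(ALPHA)1 was not among the genes tested. Of the 50-base stretches of the gene, 85.7% occur once in the genome, against 100% for the other 9 members. Some reads of MF(ALPHA)1 may therefore not have been counted, which was not tested.

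STE3 encodes the receptor for a-factor (YKL178C, chrXI:113215-114627). It had 22 and 16 counts in CRN/PPN2 with KOH, 28 and 23 in CRN/PPN2 in YPD, 14 and 18 in KOH-grown CRN, and 12 and 12 in CRN in YPD. In CPM these were 13.9 and 18.9 in CRN/PPN2 with KOH, 5.71 and 4.51 in CRN/PPN2 in YPD, 3.71 and 3.94 in KOH-grown CRN, and 2.72 and 2.65 in CRN in YPD, so that the 4 groups did not overlap. The log2 fold change with KOH was 1.62 ± 0.33 in CRN/PPN2 (adjusted p = 0.000469) and 0.51 ± 0.38 in CRN (adjusted p = 0.397), and these differed by 1.11 ± 0.51 (adjusted p = 0.0893). The call in CRN/PPN2 was lost when all libraries were thinned to the smallest (1.20, adjusted p = 0.0773).

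**Figure D3:**
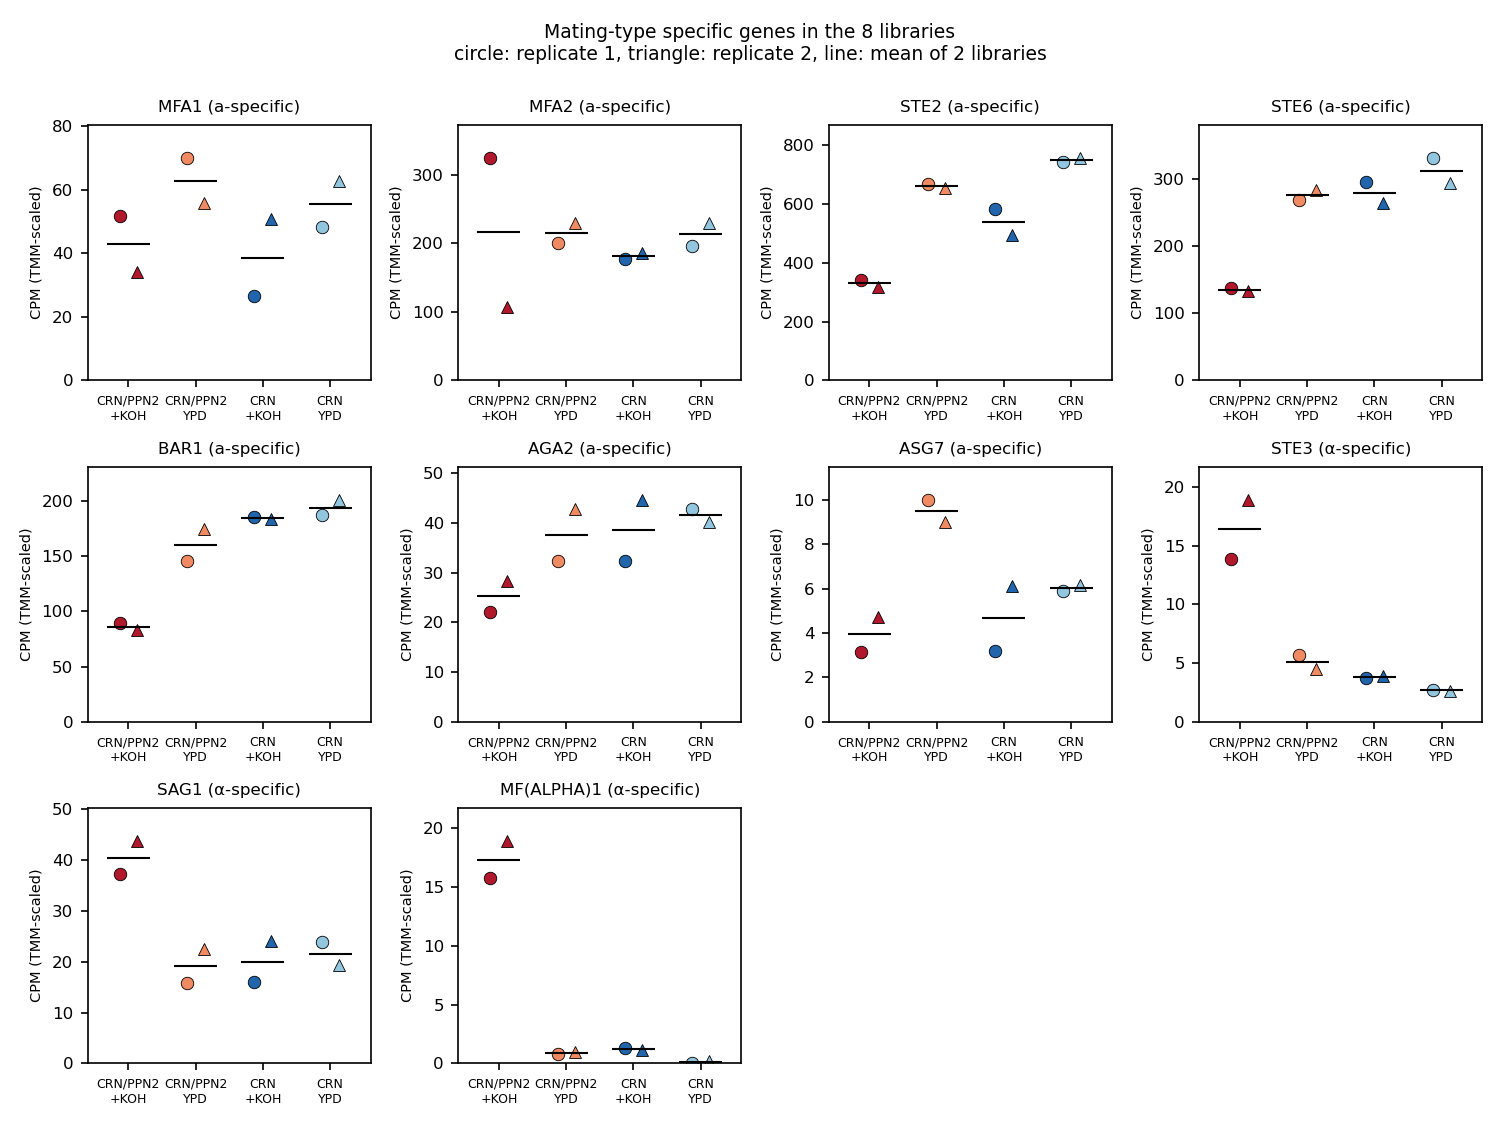
Level of each of the 10 genes (TMM-scaled CPM, linear axes from 0, each panel with its own scale) in the 8 libraries by group. Circles are replicates 1, triangles replicates 2 and lines the mean of 2 libraries. STE2, STE6 and BAR1 are lowest in CRN/PPN2 with KOH, STE3, SAG1 and MF(ALPHA)1 are highest there, and MFA2 ranges from 108 to 324 CPM between the replicates of that group.

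Counted over the tested members, 7 of 9 were called for KOH vs. YPD in CRN/PPN2, 4 lower (STE2, STE6, BAR1 and AGA2, all a-specific) and 3 higher (STE3, SAG1 and MF(ALPHA)1, all α-specific). In this comparison 54.7% of all tested genes were called, 29.2% higher and 25.5% lower, so a call by itself says little of these genes. Leaving out STE3 and MF(ALPHA)1, which had to be high in this group to be tested, 5 of 7 were called, 4 lower and SAG1 higher. The median log2 fold change was -0.73 for the 6 tested a-specific genes and -0.01 for all 5430 genes. The same 7 members were called in the same directions for CRN/PPN2 vs. CRN with KOH, where 56.7% of all genes were called, 30.8% higher and 25.9% lower, and without STE3 and MF(ALPHA)1 it was again 5 of 7. DESeq2 called 6 of 9 members in each comparison, without AGA2. Of all genes it called 47.5% for KOH vs. YPD in CRN/PPN2 and 50.2% for CRN/PPN2 vs. CRN with KOH. These 2 comparisons share the CRN/PPN2 libraries with KOH. The values in the second were -0.70 for STE2, -1.05 for STE6, -1.08 for BAR1, -0.62 for AGA2, 2.03 for STE3, 1.02 for SAG1 and 3.82 for MF(ALPHA)1 (log2 fold change, adjusted p 8.17e-07 to 0.0293, edgeR). MFA1 at 0.24 ± 0.29 and MFA2 at 0.30 ± 0.26 did not pass.

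For KOH vs. YPD in CRN, 2 of 9 members were called, STE2 lower and MF(ALPHA)1 higher, against 15.1% of all genes (7.53% higher and 7.61% lower). The call of STE2 was lost in 5 of 18 alternatives. That of MF(ALPHA)1 was lost in 9 of 14, and in 1 more its sign turned. The 6 tested a-specific genes had log2 fold changes from -0.51 to -0.07, all below 0, with a median of -0.20 against 0.01 for all genes. The effects of KOH in CRN/PPN2 and in CRN differed, by the interaction term, for 4 of 9 members, STE2, STE6 and BAR1 lower and SAG1 higher, against 39.7% of all genes (22.2% higher and 17.6% lower). With upper quartile factors 994 genes were called higher and 1240 lower for this term, against 1203 and 953 with TMM.
For CRN/PPN2 vs. CRN in YPD, 0 of 9 members were called by edgeR's quasi-likelihood test, against 6.5% of all genes (4.13% higher and 2.38% lower). DESeq2 also called 0 of 9, against 4.36% of all genes. By edgeR's test BAR1 was at -0.28 ± 0.12 (adjusted p = 0.185) and STE3 at 0.92 ± 0.35 (adjusted p = 0.135). MF(ALPHA)1 was at 2.68 ± 0.99 (adjusted p = 0.124), on 9 counts against 1. STE3 and MF(ALPHA)1 were among the tested genes only through the CRN/PPN2 libraries with KOH. STE2 and STE6, with errors near that of BAR1, were at -0.18 ± 0.13 and -0.17 ± 0.12.

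**Figure D4:**
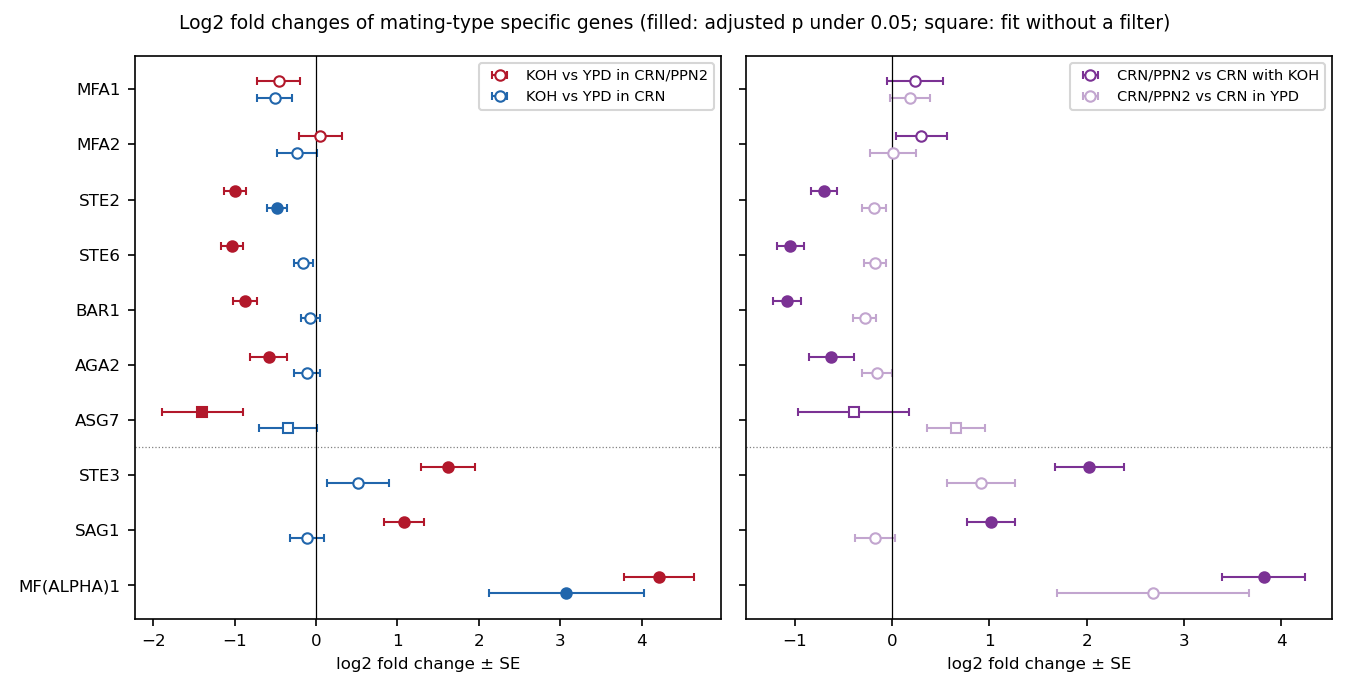
Log2 fold change ± SE (x axis) of the 10 genes (y axis) for KOH vs. YPD in CRN/PPN2 and in CRN (left panel) and for CRN/PPN2 vs. CRN with KOH and in YPD (right panel). Filled symbols have an adjusted p under 0.05, and squares mark ASG7, from a fit with no filter. In CRN/PPN2, STE2, STE6 and BAR1 lie between -1.03 and -0.87 and the α-specific genes between 1.08 and 4.22.

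Across the 8 libraries, STE2, STE6 and BAR1 varied together, with Pearson's r of 0.89 to 0.97 on log2 CPM, and against STE3 and MF(ALPHA)1, with r of -0.99 to -0.92. SAG1 was less tightly opposed, with r of -0.86 to -0.81 with STE2, STE6 and BAR1 and -0.49 with AGA2. AGA2 had r of 0.73 to 0.84 with STE2, STE6 and BAR1. MFA1 and MFA2 had r of 0.54 with each other and 0.14 to 0.39 with STE2, STE6 and BAR1. These are descriptions over 8 libraries in which CRN/PPN2 with KOH stands apart in depth and in most genes. The non-members most like them by r were AAP1 for STE2 (0.992), SWI3 for STE6 (0.996), FRS1 for BAR1 (0.995), RPN2 for STE3 (0.997), RFX1 for SAG1 (0.989) and HEM25 for MF(ALPHA)1 (0.994). For MFA1 the closest gene was PMP3, at 0.91, and for MFA2 it was CDD1, at 0.95.

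STE3 and MF(ALPHA)1 were not alone among low genes. Of 1450 genes that had at least 1 count and stayed under 10 CPM in the other 6 libraries, 159 (11%) reached 10 CPM in both CRN/PPN2 libraries with KOH, STE3 and MF(ALPHA)1 among them. Of the 685 under 10 CPM in those 6 with at least 20 counts in all, 264 (38.5%) were called higher with KOH in CRN/PPN2. Another 8 were called lower, and the median log2 fold change of the 685 was 1.05 (edgeR, no filter on low counts). These genes were picked for being low elsewhere, which partly fixes their direction, so this is a description only. With all libraries thinned to the smallest, the KOH call in CRN/PPN2 was lost for STE3 (1.20, adjusted p = 0.0773, edgeR). That of MF(ALPHA)1 was kept in the 15 alternatives in which it was tested, thinning among them, with 4.09 as the lowest value. With either of the CRN/PPN2 libraries with KOH left out it was not tested, so the kept call is not support. Beyond thinning, the part that depth had in the values of STE3 and MF(ALPHA)1 was not tested, and that of lysis cannot be told apart. Of the α-specific genes outside the 10, AFB1, which blocks a-factor, did not pass the test. It had 12.6 and 15.4 CPM in CRN/PPN2 with KOH against 5.30 and 11.2 in CRN/PPN2 in YPD (0.76 ± 0.38, adjusted p = 0.0990). MF(ALPHA)2, the minor α-factor gene, had 0 to 2 counts in all libraries.

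The mating-type genes themselves could be read only in part. The reference genome carries the α allele at the mating-type locus, and MATALPHA1, MATALPHA2, HMLALPHA1, HMLALPHA2 and HMRA2 have no 50-base stretch that occurs once in it. Their counts, 0 apart from 1 count of HMLALPHA2 in CRN/PPN2 with KOH replicate 2, therefore say nothing of α1 and α2. HMRA1 (YCR097W, chrIII:293835-294321) is unique, and reads of the a1 gene from the MATa locus and from the silent copy at HMR both fall on it and cannot be told apart.
HMRA1 had 293 and 399 CPM in CRN/PPN2 with KOH, against 106 and 78.6 in CRN/PPN2 in YPD, 95.8 and 95.2 in KOH-grown CRN, and 91.5 and 65.5 in CRN in YPD. It rose with KOH in CRN/PPN2 by 1.89 ± 0.17 on the log2 scale (3.72-fold, adjusted p = 7.60e-08), with 0.29 ± 0.17 in CRN (adjusted p = 0.279). The difference was 1.60 ± 0.25 (adjusted p = 8.48e-05), and this call, that of KOH in CRN/PPN2 and that of strain with KOH (1.84 ± 0.18, adjusted p = 1.09e-07) held in every alternative run.

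Among 7 genes of silencing and of Mcm1-dependent control, 4 were lower with KOH in CRN/PPN2, against 25.5% of all tested genes. SIR2, a deacetylase that silences HML and HMR, had 19.6 and 22.5 CPM in CRN/PPN2 with KOH against 27.1 and 40.6 in CRN/PPN2 in YPD (-0.65, adjusted p = 0.0202). MCM1 had 42.9 and 27.2 CPM in CRN/PPN2 with KOH against 48.8 and 59.2 in CRN/PPN2 in YPD (-0.54, adjusted p = 0.0374). SIR1 (-0.59, adjusted p = 0.0369) and TUP1 (-0.51, adjusted p = 0.0164) were also lower, and SIR3 (0.32), SIR4 (-0.12) and CYC8 (-0.26) were not called. In CRN the 7 had values from -0.32 to 0.29 with KOH, with adjusted p of 0.198 and above.

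Of 7 genes that mature a-factor, STE24, a protease, was higher with KOH in CRN/PPN2 (0.72, adjusted p = 0.000312) and RAM2, a subunit of the farnesyltransferase, was lower (-0.83, adjusted p = 0.000291). RAM1, RCE1, STE14, AXL1 and STE23 were not called there and had values from -0.68 to -0.12. Of the 3 genes that mature α-factor, the carboxypeptidase KEX1 was higher (1.02, adjusted p = 1.88e-06), the dipeptidyl aminopeptidase STE13 was lower (-0.52, adjusted p = 0.0153) and the protease KEX2 was at 0.01. In this comparison 54.7% of all tested genes were called, 29.2% higher and 25.5% lower, so these calls by themselves say little.

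The pheromone signalling genes moved in both directions. Of 18 core genes, 10 were lower and 3 higher with KOH in CRN/PPN2, against 25.5% and 29.2% of all tested genes. In CRN 1 of the 18 was called, FAR1, which was lower, against 15.1% of all tested genes. The median log2 fold change was -0.44 with KOH in CRN/PPN2 and 0.06 with KOH in CRN. Between the strains in YPD the 18 values ran from -0.41 to 0.30, with adjusted p of 0.052 and above. GPA1, the α subunit of the G protein under Ste2 and Ste3, had 82.0 and 54.4 CPM in CRN/PPN2 with KOH against 146 and 151 in CRN/PPN2 in YPD (-1.07, adjusted p = 2.06e-05). STE18, the γ subunit, moved the other way, with 111 and 115 CPM against 55.9 and 52.1 (1.05, adjusted p = 8.26e-06). FAR1, which arrests the cell cycle, was lower in CRN/PPN2 (-1.37, adjusted p = 1.65e-06) and in CRN (-0.41, adjusted p = 0.0242), and STE12, the transcription factor at the end of the pathway, was lower in CRN/PPN2 (-1.02, adjusted p = 0.000106).

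**Figure D5:**
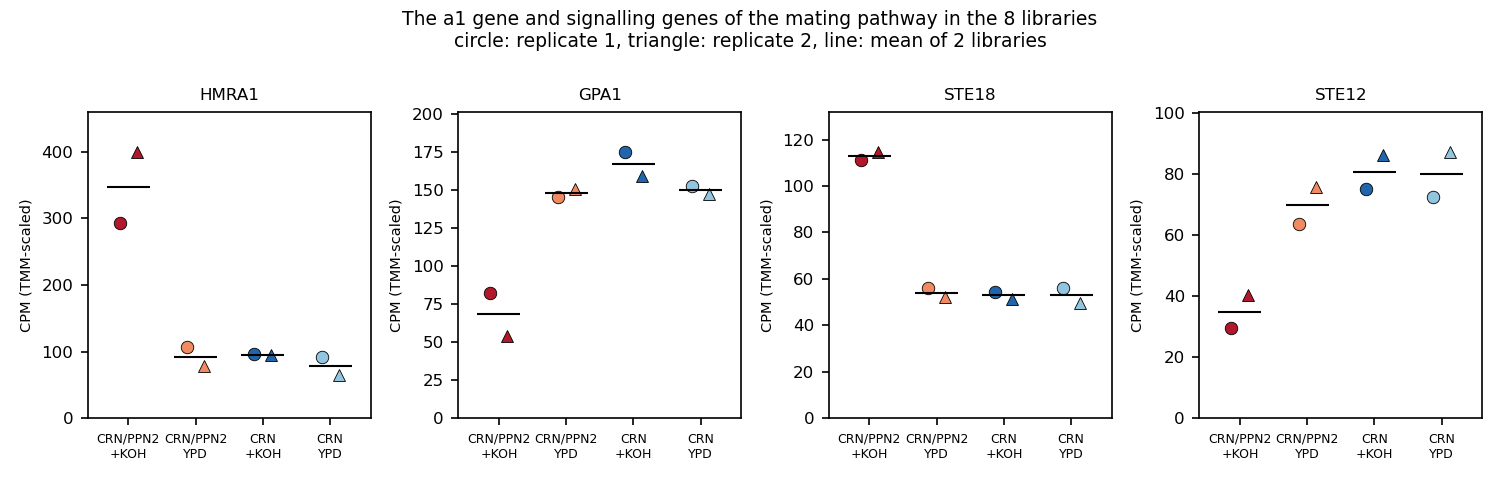
Level (TMM-scaled CPM, linear axes from 0) of HMRA1, GPA1, STE18 and STE12 in the 8 libraries by group. Circles are replicates 1, triangles replicates 2 and lines the mean of 2 libraries. HMRA1 and STE18 are highest, and GPA1 and STE12 lowest, in CRN/PPN2 with KOH, and the other 3 groups lie close together.

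Of 12 genes known to be induced by pheromone, 7 were tested, and 6 of them were higher with KOH in CRN/PPN2, against 29.2% of all tested genes. FUS1 and FUS2, which serve cell fusion, passed the filter only with the libraries of that group, so their calls are not support. Without them, AGA1, KAR4, PRM4 and KAR5 were higher and FIG2 was not called. AGA1, the anchor to which Aga2 is bound, had 27.1 and 44.9 CPM in CRN/PPN2 with KOH against 12.4 and 21.2 in CRN/PPN2 in YPD (1.08, adjusted p = 0.000525), the reverse of its partner AGA2. PRM4 had 34.1 and 44.9 CPM against 11.8 and 12.7 (1.66, adjusted p = 6.66e-06). In YPD, AGA1 (-0.70, adjusted p = 0.0218) and PRM4 (-0.85, adjusted p = 0.00861) were below CRN in the CRN/PPN2 libraries, 2 of the 7 against 2.38% of all tested genes. In CRN with KOH 1 of the 7 was called, KAR4 (0.49, adjusted p = 0.0239), against 15.1% of all tested genes.
Of 9 haploid-specific genes, HO, the endonuclease of mating-type switching, was lower in CRN/PPN2 in YPD, at 84.9 and 70.5 CPM against 154 and 145 in CRN in YPD (-0.95, adjusted p = 5.29e-05). With KOH, HO had 21.5 and 20.1 CPM in CRN/PPN2 against 149 and 151 in CRN (-2.85, adjusted p = 1.02e-09). With KOH in CRN/PPN2, 4 of the 9 were lower and 2 were higher, near the 54.7% called in either direction over all tested genes.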

How the data were processed

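RNA of 4 groups, with 2 libraries each, was sequenced. The authors deposited raw counts per gene, made with STAR 2.7.6a on the genome R64-1-1 and Ensembl gene models. The kit was stranded, but which strand column was taken is not given in the sources used here, so antisense reads could not be set apart. Reads that map to several places are not counted.

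Counts were scaled with TMM factors and tested in R 4.3.3 with edgeR 4.0.16 (quasi-likelihood test, Benjamini-Hochberg adjustment) on the 5430 genes that reached 10 CPM in 2 or more libraries, in a model of 4 groups with the replicate number as a block. The study's methods state that this number marks a batch. The differences between replicates 2 and 1 correlated between groups with r from 0.093 to 0.467 across genes. The SE is the log2 fold change over the square root of F, and is approximate. CPM per kb divides by the RefSeq gene length, which for the members is the coding length. Correlations used log2 CPM with a prior count of 2. Counts of 0 allow up to 3 counts.

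The members and the gene lists were chosen with earlier results of these data known. The rule named all 10 members, every gene of lists of up to 7, up to 4 genes per comparison of longer lists, and the 2 non-members closest to each member by r, of which a part is printed. Alternatives were upper quartile and RLE factors, filterByExpr or no filter, DESeq2 1.42.0, no replicate block, ComBat-seq counts (sva 3.50.0), thinning to 796548 counts, the 4 libraries of a comparison alone, no CRN/PPN2 libraries with KOH, and each library left out. Figures were drawn with matplotlib 3.10.9.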

Additional observations from a re-analysis of the deposited data

Results flagged for a closer look

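The effect of KOH differed between CRN/PPN2 and CRN, by edgeR's test of the difference itself, for 4 of the 9 tested members and for HMRA1. The differences, on the log2 scale and CRN/PPN2 minus CRN, were -0.52 for STE2, -0.87 for STE6, -0.80 for BAR1, 1.19 for SAG1 and 1.60 for HMRA1 (adjusted p 8.48e-05 to 0.0309). This compares a group lysed in another way with 3 that were not, and 39.7% of all tested genes passed the same test.

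The same test passed for 18 of the 46 tested genes of the other lists (39.1%), a share near that of all genes. Among the regulators and maturation genes these were SIR2 (-0.94), MCM1 (-0.73), RAM2 (-0.86), STE24 (0.52) and KEX1 (0.96). Among the signalling genes they were GPA1 (-1.23), STE4 (-0.81), STE18 (1.05), STE12 (-1.04), FAR1 (-0.95), BEM1 (-0.92) and CDC42 (-1.13). Among the haploid-specific and pheromone-induced genes they were NEJ1 (0.90), HO (-1.90), FUS1 (1.67), AGA1 (1.29), PRM4 (1.48) and KAR5 (0.65). Of these, FUS1 passed the filter only with the CRN/PPN2 libraries with KOH. The subunits of 1 G protein differed in sign, with STE18 against GPA1 and STE4.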

How the results depend on the processing

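Of 837 log2 fold changes of the members and HMRA1 under alternatives, 753 kept their direction and their side of the threshold, 38 lost the call, 11 gained one and 35 turned sign. For KOH vs. YPD in CRN, the members called were 2, and 1 with no filter, with filterByExpr, with DESeq2, after thinning and without both CRN/PPN2 libraries with KOH, 0 without the replicate block, and 0 to 2 with each library left out. For the difference of the KOH effect they were 4, and 2 after thinning and 2 to 5 with each library left out. In the other comparisons the counts stayed within 1.5 times the value given. Per count without the gene length, the α-specific share averaged 8.39% in CRN/PPN2 with KOH, 1.74% in CRN/PPN2 in YPD, 1.95% in CRN with KOH and 1.53% in CRN in YPD.

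The values that turned sign were all of uncalled results except MF(ALPHA)1 for KOH in CRN, which was -0.001 after thinning. Thinning also gave -0.048 for MFA1 and -0.116 for MFA2 between the strains in YPD, 0.007 for AGA2 with KOH in CRN and -0.083 for MFA2 with KOH in CRN/PPN2. For the last, upper quartile factors gave -0.046, no filter -0.024, DESeq2 -0.052 and the 4 libraries alone -0.117. For the difference of the KOH effect, MFA1 was -0.054 with upper quartile factors and -0.025 with no filter. With each library left out, the ranges between the strains in YPD were -0.186 to 0.545 for MFA1, -0.247 to 0.294 for MFA2, -0.418 to 0.101 for AGA2 and -0.566 to 0.201 for SAG1. Between the strains with KOH they were -0.272 to 0.780 for MFA1 and -0.806 to 0.951 for MFA2, for KOH in CRN -0.481 to 0.040 for MFA2, -0.389 to 0.135 for AGA2 and -0.513 to 0.258 for SAG1, for KOH in CRN/PPN2 -1.047 to 0.688 for MFA2 and for the difference -0.467 to 0.616 for MFA1, -0.821 to 0.933 for MFA2 and -0.871 to 1.862 for MF(ALPHA)1.

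Upper quartile factors moved the median log2 fold change of all genes with KOH in CRN/PPN2 to -0.11 and the calls to 1371 higher and 1691 lower, against 1586 and 1386. Between the strains with KOH they gave 1461 higher and 1715 lower, against 1672 and 1405. The share of all genes called ranged over the alternatives from 1.81% to 16.7% between the strains in YPD (6.5% as given), from 3.72% to 33.4% for KOH in CRN (15.1%) and from 23.2% to 46.4% for the difference (39.7%). The separate count files equal the table in 8 of 8 libraries, so that alternative gave the same values. Without the replicate block, AGA2 with KOH in CRN/PPN2 (adjusted p = 0.0621), STE2 and MF(ALPHA)1 with KOH in CRN (0.0878 and 0.0612) and STE2 for the difference (0.0957) were no longer called. The libraries of CRN/PPN2 with KOH are the shallowest and limit MF(ALPHA)1, STE3 and ASG7. The cause of these changes was not tested.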
